A study of Homo sapiens with 5 samples.

Results

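The genes described here are 7 genes of glucose uptake and glycolysis that have been reported as ZBTB7A targets, SLC2A1, SLC2A3, HK2, PFKP, ENO1, PKM and LDHA. ZBTB7A binding sites around them were taken from 3 lists of ChIP-seq (chromatin immunoprecipitation and sequencing) peaks. A peak was counted for a gene when its summit lay inside the gene span or within 50 kb of either end. By this rule 18 of 34120 peaks belonged to the genes in DHT, 57 of 124868 in FBS and 19 of 37782 in CSS. The gene spans are hg19 positions given to the nearest 1 kb, so a distance to the end of a span is uncertain by about that much. The 5′ end used here is that of the span. HK2, PFKP and LDHA have further RefSeq starts, so a distance from the 5′ end need not be the distance from the nearest start. Peaks were not assigned to one gene among several, since the windows also reach towards neighbours. These include LDHC beside LDHA, PARP6 and GRAMD2A beside PKM, RERE and CA6 beside ENO1, SLC2A14 beside SLC2A3 and PITRM1 beside PFKP. The gene order is that of RefSeq, GRCh38.

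The cells were VCaP, an established prostate cancer line with an active androgen receptor and a TMPRSS2-ERG gene fusion. The DHT cells (2 libraries) were given the androgen dihydrotestosterone, 10 nM for 4 hours, in RPMI with 5% CSS, a hormone-depleted serum. The FBS cells (1 library) were grown in full serum, routinely 10% in DMEM. The CSS cells (2 libraries) received vehicle for 4 hours in the same hormone-depleted medium as the DHT cells. The treatment label of the FBS library does not differ from that of the other libraries, and full serum without added DHT was read from its culture condition. Each condition is represented by 1 list, so there is no spread between replicates, no p-value is given, and intervals are exact 95% intervals that cover counting error only. The read depth of the lists is unknown, and the length of a list can reflect depth as well as binding. The identity of the cells could not be checked against marker genes, since no expression was measured.

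Glycolysis turns glucose into pyruvate. Glucose enters the cell through transporters of the SLC2A family, is trapped by hexokinase, passes the committed step at phosphofructokinase, and yields pyruvate through enolase and pyruvate kinase, and lactate dehydrogenase turns pyruvate into lactate. ZBTB7A, also called LRF or Pokemon, is a zinc finger protein of the BTB family that binds GC-rich DNA, and it is known as a direct repressor of SLC2A3, PFKP and PKM in other tumour cells. Tumours often run glycolysis at a high rate even with oxygen present.

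ZBTB7A peaks lay at the 5′ end of 6 of the 7 genes, and SLC2A3 was the exception. A summit within 2.5 kb of the 5′ end was present at 5 genes in DHT (all but PFKP and SLC2A3), at 6 genes in FBS and at the same 6 genes in CSS. As a background, 5.11% of all 5 kb windows of chromosomes 1 to 22 and X held a DHT summit, 17.7% held an FBS summit and 5.60% held a CSS summit. This background is the genome and not other promoters: an hg19 annotation was not used here, so how the 7 genes compare with other promoters was not tested. The strength of these 5′ peaks within their lists varied widely. Their percentile (the place of a peak in its own list by −log10 q, where 100 is the strongest) ran from 26.1 to 85.1 in DHT (median 54.1), from 13.1 to 98.6 in FBS (median 72.7) and from 10.7 to 76.4 in CSS (median 68.5). None of the 6 DHT peaks there had a −log10 q of at least 10, against 11.8% of the DHT list. Of the FBS peaks 1 of 12 did (at PKM), against 4.92% of the FBS list, and none of 6 CSS peaks did, against 14.5% of the CSS list. The fold enrichment, the −log10 q and the percentile of a peak are, or come from, the authors' values for that peak and describe it within its list only.

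**Figure D1:**
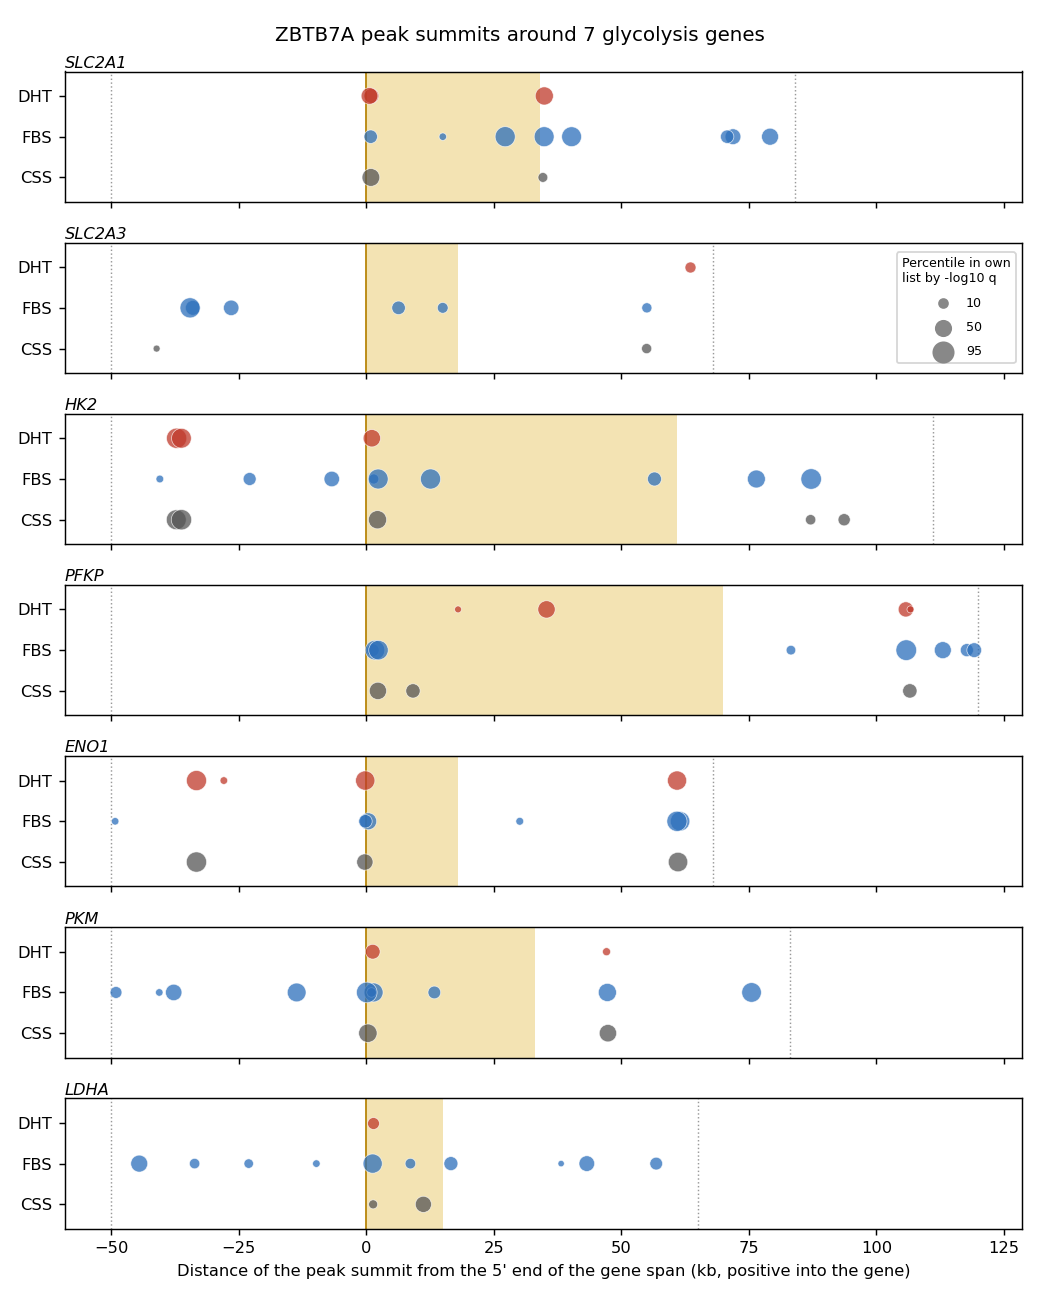
Summits of ZBTB7A peaks around each gene, by distance in kb from the 5′ end of the gene span (shaded; SLC2A3 is drawn from its end of higher coordinate, because its strand was not in the tables used). Each point is a peak, a larger point has a higher percentile in its own list, dotted lines mark the limits of the window, and all genes except SLC2A3 have points close to 0 kb.

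SLC2A1 (hg19 chromosome 1, 43391000 to 43425000) encodes GLUT1, the transporter that carries basal glucose uptake in most cells. Its 5′ end was occupied in each list. In DHT there were 2 peaks there, from 43423705 to 43424213 (fold enrichment 5.53, −log10 q 4.97, percentile 46.6) and from 43424275 to 43424527 (6.09, 5.98, percentile 61.6). The FBS peak ran from 43423723 to 43424214 (3.43, 3.97, percentile 36.2) and the CSS peak from 43423676 to 43424310 (6.73, 7.03, percentile 70.4). The CSS peak overlapped both DHT peaks and the FBS peak, and the FBS summit lay 40 bp from the CSS summit. The start of this gene is shown because all 3 lists had an overlapping peak there. It is the RefSeq window from 250 bases before to 50 bases after the start (GRCh38 chr1:42958819-42959118, minus strand), with GACCC, the core of the known ZBTB7A site, or its reverse complement GGGTC in capitals. Where the hg19 peaks fall in this window was not worked out, since positions were not converted between builds.
SLC2A1: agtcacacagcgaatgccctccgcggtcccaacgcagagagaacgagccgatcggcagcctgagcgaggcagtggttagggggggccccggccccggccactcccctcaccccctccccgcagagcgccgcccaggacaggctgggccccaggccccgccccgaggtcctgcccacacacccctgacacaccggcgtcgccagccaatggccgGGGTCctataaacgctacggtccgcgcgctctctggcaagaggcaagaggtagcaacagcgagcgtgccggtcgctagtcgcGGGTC
A second site lay just beyond the other end of SLC2A1 and was also called in each list. It ran from 43389967 to 43390238 in DHT (7.16, 7.28, percentile 73.8), from 43389790 to 43390388 in FBS (5.37, 8.16, percentile 91.1) and from 43390212 to 43390558 in CSS (4.56, 3.11, percentile 14.4). This was the strongest DHT peak of the SLC2A1 window and the weaker of the 2 CSS peaks. In FBS the strongest peak lay inside the gene, from 43397569 to 43397946 (5.03, 8.75, percentile 93.0). That peak and the other 5 FBS peaks of the window had no partner in DHT or CSS.

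SLC2A3 (chromosome 12, 8071000 to 8089000) encodes GLUT3, a transporter of high affinity that is abundant in neurons. It had no peak within 2.5 kb of either end of the span in any list. The nearest DHT summit was 45.5 kb outside the span, at a peak from 8025354 to 8025719 (4.77, 3.65, percentile 20.9), and it was the only DHT peak of the window. In FBS there were 6 peaks, 2 of them inside the span, and the summit nearest to an end was 2.99 kb inside the span from its lower end. In CSS there were 2 weak peaks, at percentiles 2.32 and 16.2, and the nearer one was 37.0 kb outside the span. The strongest peak of the window was an FBS peak from 8123315 to 8123665 (5.11, 8.93, percentile 93.2), 34.5 kb beyond the higher end, with no DHT or CSS partner. The FBS and CSS lists shared 1 weak site, from 8033887 to 8034188, and the DHT list shared none.

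HK2 (chromosome 2, 75060000 to 75121000) encodes hexokinase 2, the form of the glucose-phosphorylating enzyme that many tumours express. It had a 5′ peak in each list, but the DHT and CSS peaks lay at different places. The DHT peak ran from 75060936 to 75061297 (6.12, 6.596, percentile 66.9) and the CSS peak from 75062075 to 75062407 (6.76, 7.65, percentile 74.8), with summits 1107 bp apart. FBS had a peak from 75061352 to 75061686 (3.33, 3.11, percentile 15.6) and a stronger one from 75062185 to 75062544 (5.11, 8.31, percentile 91.4). The stronger FBS peak overlapped the CSS peak, and neither FBS peak overlapped the DHT peak. RefSeq lists 2 starts for HK2, whose windows begin 1043 bp apart, and both are shown because the peaks of this gene were spread over a similar distance. They are GRCh38 chr2:74833877-74834176 and chr2:74834920-74835219, both plus strand, with GACCC or GGGTC in capitals. Which peak lies at which start was not worked out, since positions were not converted between builds.
HK2 upstream start: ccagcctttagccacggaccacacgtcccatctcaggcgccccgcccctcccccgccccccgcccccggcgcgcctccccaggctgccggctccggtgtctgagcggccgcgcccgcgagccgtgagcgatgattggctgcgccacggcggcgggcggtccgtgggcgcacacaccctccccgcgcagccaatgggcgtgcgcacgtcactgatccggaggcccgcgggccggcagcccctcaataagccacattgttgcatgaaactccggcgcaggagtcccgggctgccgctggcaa
HK2 downstream start: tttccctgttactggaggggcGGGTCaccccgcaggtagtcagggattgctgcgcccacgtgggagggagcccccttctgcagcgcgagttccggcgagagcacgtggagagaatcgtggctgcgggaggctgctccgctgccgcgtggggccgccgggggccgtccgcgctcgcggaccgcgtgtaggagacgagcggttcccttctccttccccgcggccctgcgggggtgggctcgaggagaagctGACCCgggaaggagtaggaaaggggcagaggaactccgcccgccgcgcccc
GACCC was absent from the upstream window and present at 2 places in the downstream one, which also held CACGTG, the E-box bound by MYC-family factors, at 2 places.

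The strongest HK2 sites of the depleted-serum lists lay upstream of the gene. A pair of neighbouring peaks 36.2 to 37.2 kb before the 5′ end was called in both. In DHT they ran from 75022705 to 75023043 (8.08, 12.3, percentile 94.4) and from 75023608 to 75024011 (7.35, 10.4, percentile 89.6). In CSS they ran from 75022669 to 75023105 (7.08, 11.9, percentile 90.5) and from 75023292 to 75024004 (8.31, 15.8, percentile 95.4). FBS had no overlapping peak at either. Over the whole lists, 48.2% of DHT peaks and 44.1% of CSS peaks had an FBS partner. The absence here is an absence of a call, and signal below the calling threshold was not analysed. The strongest FBS peak of the window lay beyond the 3′ end, from 75146959 to 75147475 (6.84, 12.7, percentile 97.5), and its CSS partner from 75146994 to 75147252 was weak (4.60, 3.33, percentile 17.2). DHT had no peak there.

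PFKP (chromosome 10, 3109000 to 3179000) encodes the platelet form of phosphofructokinase 1. Its 5′ end carried peaks in FBS and CSS and none in DHT. The nearest DHT summit was 18.01 kb into the gene, in a weak peak from 3126875 to 3127116 (3.86, 2.26, percentile 2.07). FBS had 3 peaks, from 3110225 to 3110466 (3.07, 3.58, percentile 30.8), from 3110596 to 3110881 (4.13, 7.33, percentile 87.4) and from 3111300 to 3111600 (4.08, 7.20, percentile 87.04). The CSS peak, from 3111087 to 3111402 (5.94, 6.46, percentile 66.6), overlapped the last of these. The absence in the DHT list is an absence of a call, and the signal below the calling threshold was not analysed here. RefSeq lists 4 starts for PFKP, and 3 of the 4 windows held GACCC. Those 3 begin at GRCh38 positions 3067720, 3068377 and 3068939, and the other, far downstream of them, at 3104359. The strongest DHT peak near PFKP was intragenic, from 3144226 to 3144431 (6.65, 6.57, percentile 66.8), without a partner in FBS or CSS. Its summit lay 35.3 kb from the 5′ end of the span. How far it lies from the downstream start was not worked out, since positions were not converted between builds. The strongest FBS peak, from 3214690 to 3214963 (7.60, 15.4, percentile 98.7), lay 35.8 kb beyond the 3′ end, on the side of the neighbouring gene PITRM1. That peak overlapped a DHT peak from 3214653 to 3214860 (5.77, 5.10, percentile 48.7). Whether this site belongs to PFKP or to PITRM1 was not determined.

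ENO1 (chromosome 1, 8921000 to 8939000) encodes enolase 1, which makes phosphoenolpyruvate. Its 5′ end held overlapping peaks in the 3 lists, with the DHT summit 41 bp from the FBS summit and 75 bp from the CSS summit. The DHT peak ran from 8939061 to 8939434 (7.99, 9.21, percentile 85.1). This was the highest −log10 q of any DHT peak at the 5′ ends. The FBS peaks ran from 8938499 to 8938738 (3.61, 5.04, percentile 63.4) and from 8938997 to 8939233 (3.25, 3.98, percentile 36.2), and the CSS peak from 8939110 to 8939342 (6.06, 5.62, percentile 57.7). The start is shown as a case with a peak in all 3 lists and no GACCC in the window (GRCh38 chr1:8878637-8878936, minus strand), so that no base is in capitals.
ENO1: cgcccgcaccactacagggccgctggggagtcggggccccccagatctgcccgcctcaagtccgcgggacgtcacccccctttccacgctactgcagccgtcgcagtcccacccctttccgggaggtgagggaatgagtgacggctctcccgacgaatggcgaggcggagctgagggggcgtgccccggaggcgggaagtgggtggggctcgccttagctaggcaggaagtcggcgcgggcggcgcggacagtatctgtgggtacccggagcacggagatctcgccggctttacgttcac
The window of ENO1 held the site with the highest fold enrichment of the member peaks in DHT and in CSS. It lay 33.3 kb upstream of the 5′ end, from 8972114 to 8972410 in DHT (9.49, 11.5, percentile 92.8) and from 8972123 to 8972384 in CSS (10.8, 14.8, percentile 94.4), with summits 7 bp apart. FBS had no peak called there. A site on the other side of the gene, 42.9 to 43.1 kb beyond its 3′ end and towards RERE, was called in all 3 lists. It ran from 8877900 to 8878224 in DHT (8.13, 9.02, percentile 83.97), from 8877892 to 8878205 in FBS (5.74, 9.14, percentile 93.6) and from 8877718 to 8878236 in CSS (8.41, 10.4, percentile 86.8). The CSS peak of this site also overlapped another FBS peak, from 8876993 to 8877782 (5.15, 7.17, percentile 86.9), with its summit 43.5 kb beyond the 3′ end. Whether this site belongs to ENO1 or to RERE was not determined.

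PKM (chromosome 15, 72491000 to 72524000) encodes pyruvate kinase M, whose M2 splice form is common in tumours. As at HK2, DHT and CSS each had 1 peak at the 5′ end and these did not overlap, with summits 947 bp apart. Both had FBS partners, but not the same ones. The DHT peak ran from 72522594 to 72522870 (5.47, 4.89, percentile 45.8), farther into the gene, and overlapped FBS peaks from 72522357 to 72522701 (3.71, 6.54, percentile 81.9) and from 72522831 to 72523061 (2.72, 2.87, percentile 13.1). The CSS peak ran from 72523558 to 72523830 (6.64, 7.78, percentile 76.4) and overlapped the FBS peak from 72523583 to 72524162 (5.48, 15.2, percentile 98.6). That FBS peak had the highest −log10 q of the FBS peaks at the 5′ ends. The RefSeq window of the PKM start (GRCh38 chr15:72231141-72231440, minus strand) held 1 GGGTC, in capitals.
PKM: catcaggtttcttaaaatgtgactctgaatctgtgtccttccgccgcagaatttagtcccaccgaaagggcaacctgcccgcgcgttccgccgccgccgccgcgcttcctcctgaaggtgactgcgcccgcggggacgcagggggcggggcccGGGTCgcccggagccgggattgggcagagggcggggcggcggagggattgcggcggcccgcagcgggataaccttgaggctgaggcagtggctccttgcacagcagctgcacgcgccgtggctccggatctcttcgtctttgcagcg
A site 14.1 to 14.4 kb beyond the 3′ end was called in all 3 lists. It ran from 72476702 to 72477040 in DHT (4.24, 2.66, percentile 6.44), from 72476427 to 72477112 in FBS (4.36, 5.83, percentile 73.7) and from 72476484 to 72476789 in CSS (6.604, 6.48, percentile 67.05). No other DHT or CSS peak was called in the PKM window, while FBS had 6 more, among them the widest of the member peaks at 974 bp.

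LDHA (chromosome 11, 18415000 to 18430000) encodes the muscle-type subunit of lactate dehydrogenase. One site at its 5′ end was called in the 3 lists, and it was weak in both depleted-serum lists. The DHT peak ran from 18416234 to 18416477 (5.15, 3.98, percentile 26.1), the FBS peak from 18416070 to 18416507 (4.58, 6.74, percentile 84.2) and the CSS peak from 18416195 to 18416394 (4.17, 2.55, percentile 10.7). The DHT and CSS summits were 37 bp apart, the closest of the pairs between these lists at the 5′ ends. It was the only DHT peak of the LDHA window and the strongest of its 10 FBS peaks. The strongest CSS peak lay inside the gene, from 18426162 to 18426356 (6.09, 5.57, percentile 56.8), with no DHT or FBS partner. RefSeq lists 2 starts, and the upstream one is shown (GRCh38 chr11:18394313-18394612, plus strand) with its single GACCC in capitals.
LDHA upstream start: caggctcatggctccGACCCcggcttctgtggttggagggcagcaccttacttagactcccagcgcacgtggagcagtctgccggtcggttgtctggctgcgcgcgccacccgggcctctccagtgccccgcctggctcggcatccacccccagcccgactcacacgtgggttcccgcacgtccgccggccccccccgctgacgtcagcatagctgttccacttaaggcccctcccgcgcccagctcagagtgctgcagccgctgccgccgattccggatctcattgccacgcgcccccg

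**Figure D2:**
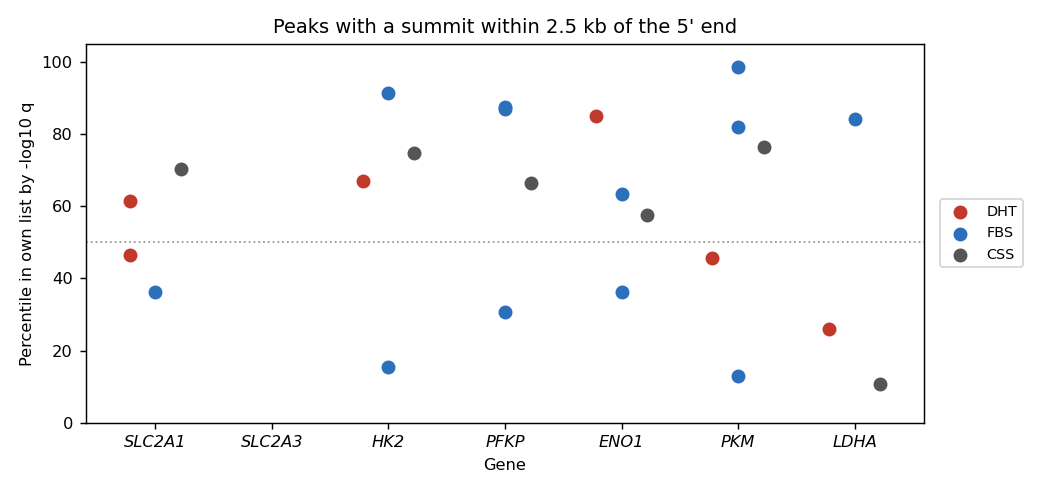
Percentile by −log10 q, within its own list, of each peak with a summit within 2.5 kb of the 5′ end of a gene, for DHT, FBS and CSS. SLC2A3 has no point, PFKP has none for DHT, and the dotted line at 50 is the middle of each list.

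Over the 11 RefSeq windows of 6 genes (none matched for SLC2A3), searched on both strands, GACCC was found in 8 windows and in at least 1 window of 5 genes. ENO1 was the gene without it. Of all 35116 promoter windows in the table, 47.6% held the word. That share is per window, and none was computed per gene. HK2, PFKP and LDHA each have more than 1 window, so the member windows are not independent of each other. CACGTG was found in 2 member windows, at HK2 and LDHA, against 7.26% of all windows. ACGTG, the core of the hypoxia response element, which also lies inside CACGTG, was found in 4 member windows at HK2, PFKP and LDHA, against 21.4% of all windows. TGTTCT, part of the androgen receptor element, was in 0 member windows and in 14.8% of all windows. The GC content of the member windows ran from 53.3% at 1 PFKP start to 79.7% at another, and 10 of the 11 were above the median over all windows of 58.7%. These are matches of letters, and they do not show which of them is bound.

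Each gene window held at least as many peaks, in each list, as the median window of its length. In DHT the counts were 4 at PFKP and ENO1, 3 at SLC2A1 and HK2, 2 at PKM and 1 at SLC2A3 and LDHA, where the median of windows of the same length was 1 for each gene. In FBS the counts were 10 at PKM and LDHA, 9 at HK2, 8 at SLC2A1 and PFKP and 6 at SLC2A3 and ENO1, where the medians were 4 to 6. In CSS the counts were 5 at HK2, 3 at PFKP and ENO1 and 2 at the other 4 genes, where the medians were 1 or 2. The count least often reached elsewhere was the DHT count at ENO1, since 8.67% of windows of that length held at least 4 DHT peaks, and the next was the CSS count at HK2, with 10.6% of windows. The FBS count at LDHA was reached by 14.2% of windows. Other counts were ordinary: the DHT counts at SLC2A3 and LDHA were reached by 63.5% and 62.8% of windows, and the CSS counts at SLC2A1 and PKM by 42.9% each. The windows cover each chromosome between its outermost summits, and no stretch in between, such as an assembly gap, was left out.

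**Figure D3:**
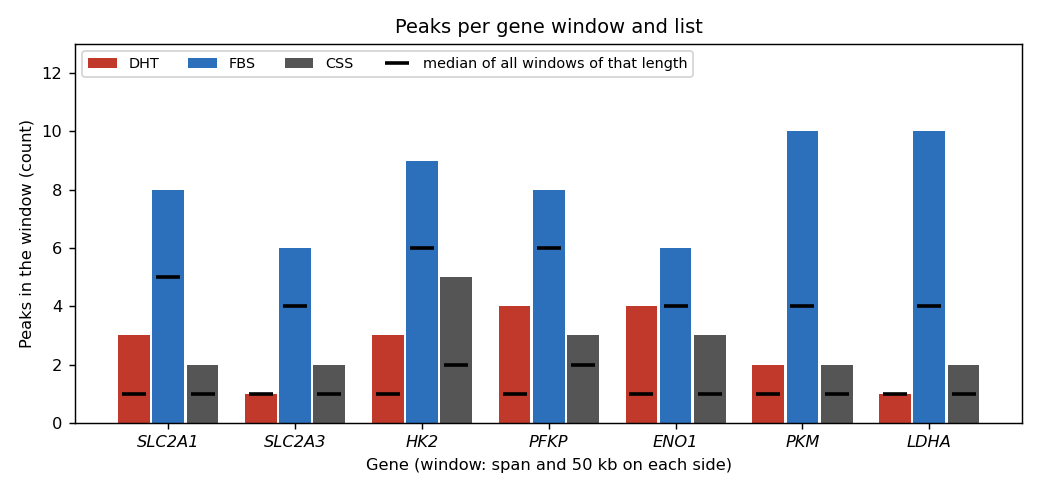
Number of peaks in the window of each gene in DHT, FBS and CSS, with a black line at the median of all windows of the same length on chromosomes 1 to 22 and X. FBS bars are highest at each gene, from 6 to 10 peaks, and the DHT and CSS bars reach at most 4 and 5.

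The share of a list near the 7 genes was similar in the 3 lists, at 0.0528% of DHT peaks, 0.0456% of FBS peaks and 0.0503% of CSS peaks. The ratio of these shares was 1.05 for DHT over CSS (0.519 to 2.11) and 0.908 for FBS over CSS (0.532 to 1.62), and both intervals include 1. There were 3 times as many FBS as CSS peaks near the genes, where the FBS list is 3.30 times as long as the CSS list. The member peaks were near the middle of their lists, with a median percentile of 55.2 in DHT (20.9 to 84.0), 45.4 in FBS (33.6 to 63.4) and 57.7 in CSS (17.2 to 76.4). A −log10 q of at least 5 was reached by 10 of 18 DHT peaks, 23 of 57 FBS peaks and 11 of 19 CSS peaks, against 53.4%, 40.9% and 48.7% of the DHT, FBS and CSS lists.

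Androgen treatment was the question of the comparison of DHT with CSS. Around the 7 genes as a group, the 2 lists shared about as many peaks as over the genome. Of the DHT peaks 11 of 18 (61.1%, 35.7 to 82.7%) overlapped a CSS peak by at least 1 bp, against 63.9% of the whole DHT list. Of the CSS peaks 10 of 19 (52.6%, 28.9 to 75.6%) overlapped a DHT peak, against 56.8% of the whole CSS list. By gene, the DHT peaks with a CSS partner were 3 of 3 at SLC2A1, 0 of 1 at SLC2A3, 2 of 3 at HK2, 1 of 4 at PFKP, 3 of 4 at ENO1, 1 of 2 at PKM and 1 of 1 at LDHA. These counts are too small to tell the genes apart. At the 5′ ends, SLC2A1, ENO1 and LDHA had overlapping DHT and CSS peaks, HK2 and PKM had a peak in each that did not overlap, and PFKP had a CSS peak only. Whether these differences exceed the spread between cultures could not be measured.

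Full serum was then set against depleted serum. The FBS cells also differed in basal medium (DMEM against RPMI), in serum percentage and in number of libraries. These cannot be told apart from the kind of serum. Of the FBS peaks near the genes, 12 of 57 (21.1%, 11.4 to 33.9%) overlapped a CSS peak, against 13.5% of the FBS list, and 15 of 57 (26.3%, 15.5 to 39.7%) overlapped a DHT or CSS peak, against 17.2% of the FBS list. In the other direction, 8 of 18 DHT peaks (44.4%, 21.5 to 69.2%) and 11 of 19 CSS peaks (57.9%, 33.5 to 79.7%) had an FBS partner, against 48.2% and 44.1% of the DHT and CSS lists. Each of these intervals includes the share of the whole list.

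The peaks at the 5′ ends were then set beside those elsewhere in the windows, a split chosen after the counts were seen. Of the FBS peaks at the 5′ ends, 8 of 12 (66.7%, 34.9 to 90.1%) had a DHT or CSS partner, and of the FBS peaks elsewhere 7 of 45 (15.6%, 6.49 to 29.5%) did. With CSS partners alone the counts were 6 of 12 (50%, 21.1 to 78.9%) at the 5′ ends and 6 of 45 (13.3%, 5.05 to 26.8%) elsewhere. The intervals did not overlap for a DHT or CSS partner and overlapped for a CSS partner, and the difference was not tested. By −log10 q the FBS peaks at the 5′ ends ranked higher, with a median percentile of 72.7, against 45.4 for those elsewhere, but their median fold enrichment was lower, at 3.66 against 4.36. The part of strength in the sharing was not tested. All 6 CSS peaks at the 5′ ends had an FBS partner (100%, 54.1 to 100%), and 5 of 13 CSS peaks elsewhere did (38.5%, 13.9 to 68.4%). For DHT the counts were 4 of 6 at the 5′ ends (66.7%, 22.3 to 95.7%) and 4 of 12 elsewhere (33.3%, 9.92 to 65.1%). Several of these peaks belong to 1 gene, so they are not independent of each other, and the intervals are narrower than they should be. Over the whole FBS list, 17.2% of peaks had a DHT or CSS partner and 13.5% a CSS partner. An FBS partner was found for 44.1% of the CSS list and 48.2% of the DHT list. Sharing at the starts of other genes was not measured, and the peaks elsewhere were not sorted by their distance from such starts.

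**Figure D4:**
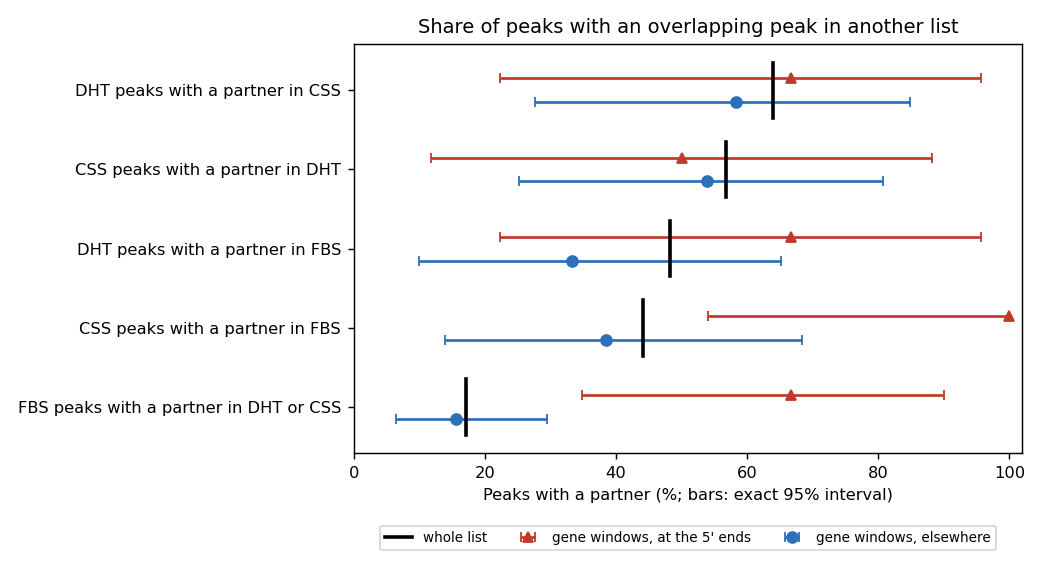
Share of peaks with an overlapping peak in another list, with exact 95% intervals, for peaks of the gene windows at the 5′ ends (triangles) and elsewhere (circles), and for the whole list (black line). For FBS peaks the 5′ ends reach 66.7%, against 15.6% elsewhere and 17.2% in the whole list.

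Overlapping peaks of the 3 lists were merged into 68 regions around the genes. Of these, 6 (8.82%, 3.31 to 18.2%) held a peak in all 3 lists, where 7.67% of all merged regions of the series did. They were the 5′ ends of SLC2A1, ENO1 and LDHA and the sites beyond the 3′ ends of SLC2A1, ENO1 (towards RERE) and PKM. Regions of a pair of lists numbered 4 in DHT and CSS only (5.88%, against 5.97% of all merged regions of the series), 5 in FBS and CSS only (7.35%, against 2.69%) and 2 in DHT and FBS only (2.94%, against 2.61%). Regions of a single list numbered 5 in DHT (7.35%, against 5.10%), 42 in FBS (61.8%, against 68.4%) and 4 in CSS (5.88%, against 7.57%). The interval for FBS and CSS only was 2.43 to 16.3%, and those of the other classes also include the share of the series. The 4 regions of DHT and CSS without FBS were the HK2 upstream pair, the ENO1 upstream site and 1 more. The last lay beyond the 3′ end of PFKP, towards PITRM1 (percentile 2.75 in DHT and 42.5 in CSS). The first 3 of these included the strongest peaks of both depleted-serum lists near the 7 genes.

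The limit of 50 kb was set by the rule for the members. The farthest peaks inside it were FBS peaks at 49.2 kb from ENO1 (−log10 q 2.49), 49.2 kb from PFKP (4.26) and 49.02 kb from PKM (3.52). The nearest outside it were FBS peaks at 52.4 kb from SLC2A3 (5.04), 54.1 kb from PKM (5.83) and 54.1 kb from LDHA (4.27), and the nearest from the other lists were a DHT peak at 55.96 kb from SLC2A3 (3.93) and a CSS peak at 56.0 kb from SLC2A3 (7.58).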

How the data were processed

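ChIP of ZBTB7A in VCaP cells used antibody MAB3496 (R&D Systems) and the ThruPLEX kit, per the labels. The 5 libraries form 3 groups by the labelled culture condition, DHT (2), FBS (1) and CSS (2), with 1 deposited peak list each. The control library, the q threshold and the way libraries were combined were not given in the sources used here. Per the submitters' processing notes, the build was hg19 and the tools were MACS2 2.0.10.20131216, SAMtools 0.1.18 and BWA 0.7.2-r351. The deposited fold enrichment is a ratio over background. The −log10 q of each peak is deposited too, and the deposited score is the whole part of 10 times that value in 100% of peaks. Positions and summit offsets are as deposited, printed with a first base of 1.

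The members and the words, distances and settings were chosen with earlier results of these data known. Named peaks were those within 2.5 kb of a 5′ end, the highest −log10 q of each gene and list, and regions in all 3 lists; other peaks singled out were chosen after their values were seen. Strands came from the RefSeq promoter table (GRCh38). A partner overlaps by at least 1 bp. Shares have Clopper-Pearson intervals, ratios of shares conditional binomial ones, and medians of percentiles order-statistic ones, all at 95% and for counting error only. Background windows tiled each chromosome between its outermost summits. A list of other glycolysis genes had been planned for the case of an hg19 annotation and has no result. The comparison of 5′ ends with the rest of the windows was chosen after the counts were seen. The code that finds partners was tested on simulated data. Tools were scipy 1.17.1, pandas 2.3.3, numpy 2.4.6, matplotlib 3.10.9 and Python 3.11.15.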

Additional observations from a re-analysis of the deposited data

How the results depend on the processing

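Of 77 values under alternative settings, 49 lay within the interval of the reported value or within 1.5 times it, and 28 lay outside. Counts and shares have no direction to change. Both ratios of shares crossed 1 under some setting, inside their intervals. DHT over CSS was 1.049 as reported and 0.918 at a −log10 q of at least 5. FBS over CSS was 0.908 as reported and 1.075 with summits within 100 kb. With summits within 10 kb of the span, the counts were 9 DHT, 25 FBS and 9 CSS peaks, and within 100 kb 28, 103 and 29. A −log10 q of at least 5 left 10, 23 and 11, and one of at least 10 left 3, 3 and 4. FBS had 17 peaks at a fold enrichment of at least 5, and 18 when each list was held to its 34120 strongest peaks, which left 18 in DHT and 18 in CSS: the excess of FBS peaks near the genes was not seen at equal list lengths. Within 1 kb of the 5′ end, 2 genes had a DHT, 3 an FBS and 3 a CSS peak, a distance near the rounding of the spans; at a −log10 q of at least 5, 3 genes had a DHT peak. With 5 kb, SLC2A3 counted in FBS through its lower end only, which was not established as its 5′ end, since its strand was not used. The FBS summit nearest to its higher end was 6.353 kb away. Where a partner had to cover 50% of both peaks, 10.5% of FBS peaks had a CSS partner, 14.0% a DHT or CSS partner, and 31.6% of CSS peaks an FBS partner. With summits within 100 bp these were 5.26%, 12.3% and 15.8%, and 33.3% of DHT peaks had a CSS partner. At a −log10 q of at least 5, 39.1% of FBS peaks had a CSS partner and 47.8% a DHT or CSS partner. By fold enrichment the median percentile of the FBS peaks was 33.5. Except where fewer peaks or a stricter overlap make the change, the cause was not tested. No paired analysis was possible because each condition has a single list, although the labels number the DHT and CSS libraries alike, and leaving out a library was not possible either.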
